A study of Homo sapiens with 2 samples.

Results

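The cytosolic ribosomal proteins were examined in SK-N-MC, a human tumour cell line that the submitters call a neuroepithelioma line and that is now placed in the Ewing tumour family. Members were the genes whose symbol is RPL or RPS followed by a number, with an optional A, X, L or L1, or RPLP0, RPLP1, RPLP2 or RPSA, taken only from probe sets annotated to 1 gene; kinases of S6 and pseudogenes were left out. The rule found 59 genes of 19775 on the array, read by 120 of 54675 probe sets, with 38 genes of the large and 21 of the small ribosomal subunit. A further 15 symbols of the family stood only on probe sets shared with other genes, among them RPL5, RPL7A, RPL13A and RPS2, and are not analysed here.

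Expression was measured on Affymetrix U133 Plus 2.0 arrays from total RNA of stably transfected cells, with 1 array per group. The control cells carried the empty pCMV-Script vector (Vector Control #1), and the compared cells carried the human melanotransferrin (MTf) cDNA in that vector (Hyper Clone #4). Melanotransferrin is a membrane-anchored relative of the iron carrier transferrin. Both groups share the parental line and the vector, whose promoter comes from cytomegalovirus. Each group is a single transfected population and a single hybridisation, so no value has a replicate SD, no difference could be tested, and clone, culture and array cannot be told apart from the transgene. Values are linear probe set signals scaled per array, and each gene is given by the brightest of its probe sets over both arrays. Signals below a floor of 208, set from genes this cell type should not express, were raised to it. Genes below it on both arrays were treated as not measured.

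The transgene was visible on 1 of 4 probe sets for MELTF, the melanotransferrin gene, at 18.4 in the control and 4449.4 in the clone. The Ewing markers CD99 (31464.8 and 32238.8) and NKX2-2 (11549.7 and 12438.4) were bright on both arrays, as was STEAP1, and PRKCB was measured too; NR0B1 is not analysed here. Of 5 hepatocyte markers 5 lay below the floor on both arrays, as did 3 of 5 epithelial, 3 of 4 leukocyte and 3 of 4 melanocyte markers, whereas 5 of 5 fibroblast markers were measured. The leukocyte marker PTPRC was bright (15581.1 and 13942.6), and so was the epithelial KRT18 (9759.9 and 10363). KRT8, also epithelial, read 509.9 and 245.6, and the melanocyte marker PMEL (217.6 and 109.8) was above the floor in the control only. The spiked control transcripts set the scale in opposite directions: 18 of 18 hybridisation probe sets were lower on the clone array (median log2 ratio -0.50) and 24 of 24 poly-A probe sets were higher (0.61). For ACTB the ratio of 3' to 5' signal was 1.21 in the control and 1.44 in the clone. For GAPDH it was 0.920 and 0.951.

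Ribosomal proteins coat the ribosomal RNA of the large and the small subunit, and cells make most of them in equal numbers, 1 copy per ribosome. Their mRNAs are among the most abundant in growing cells. They are best known for beginning with a run of pyrimidines, the terminal oligopyrimidine (TOP) tract, through which TOR signalling controls their translation. A few members have paralogues, duplicated genes whose proteins can replace the common form in some tissues or under stress.

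The start sites of the members showed that tract. RefSeq start sites (GRCh38.p14) were found for 51 of the 59 genes, and in 35 of them (68.6%) at least 1 start had a C as its first base followed by 4 or more further pyrimidines on the transcribed strand. The same pattern stood at a start of 6.24% of 15842 protein-coding genes. It was found in 34 of 46 genes of the common ribosome and in 1 of 5 paralogues, and about equally in the large (21 of 31) and the small subunit (14 of 20). Windows of 30 bases before and 20 bases from the start follow for members the results name, to set members with the run beside common forms and paralogues that lack it. Capitals mark the pyrimidine run that begins at the first transcribed base, and a window with no capitals has none.

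RPS6 (chr9:19380217-19380266, minus strand): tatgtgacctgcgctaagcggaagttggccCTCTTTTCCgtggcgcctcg
RPL35 (chr9:124861938-124861987, minus strand): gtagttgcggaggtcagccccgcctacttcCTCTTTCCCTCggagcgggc
RPL12 (chr9:127451387-127451436, minus strand): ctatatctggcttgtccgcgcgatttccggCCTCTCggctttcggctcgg
RPL31 (chr2:101002259-101002308, plus strand): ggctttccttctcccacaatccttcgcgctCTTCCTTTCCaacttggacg
RPL38 (chr17:74203648-74203697, plus strand): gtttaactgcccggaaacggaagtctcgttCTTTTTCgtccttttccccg
RPS16 (chr19:39435930-39435979, minus strand): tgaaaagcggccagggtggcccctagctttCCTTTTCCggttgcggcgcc
RPS7 (chr2:3575230-3575279, plus strand): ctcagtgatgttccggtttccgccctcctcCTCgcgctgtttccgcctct
RPL3 (chr22:39319604-39319653, minus strand): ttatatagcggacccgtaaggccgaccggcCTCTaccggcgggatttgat
RPL32 (chr3:12841546-12841595, minus strand): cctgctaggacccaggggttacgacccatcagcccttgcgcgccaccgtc
RPS28 (chr19:8321466-8321515, plus strand): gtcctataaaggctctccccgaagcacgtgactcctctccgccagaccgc
RPS27 (chr1:153990732-153990781, plus strand): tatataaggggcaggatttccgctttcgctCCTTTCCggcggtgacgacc
RPS27L (chr15:63157458-63157507, minus strand): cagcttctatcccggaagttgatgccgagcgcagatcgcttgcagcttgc
RPL22 (chr1:6199576-6199625, minus strand): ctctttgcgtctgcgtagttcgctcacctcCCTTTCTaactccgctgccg
RPL22L1 (chr3:170870176-170870225, minus strand): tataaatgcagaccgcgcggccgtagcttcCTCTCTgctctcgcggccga
RPL7L1 (chr6:42879586-42879635, plus strand): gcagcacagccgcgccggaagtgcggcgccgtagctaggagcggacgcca
RPL10L (chr14:46651762-46651811, minus strand): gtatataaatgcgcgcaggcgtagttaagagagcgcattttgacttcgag

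Across these windows the common forms RPS27 and RPL22 begin with a pyrimidine run, as do RPS6, RPL35 and RPL12. Common forms without the full run include RPS7 and RPL3, whose runs are shorter, RPS28, and RPL32, which has none at any of its 3 starts. RPL27, RPS15 and RPS29 lack it too. Among the paralogues with a start in the table only RPL22L1 has the run. RPS27L, RPL7L1 and RPL10L begin with a G, and RPL26L1 has no such run at either of its starts. A start annotated a few bases away from the true one would hide the tract: a run of 6 pyrimidines lay between 10 bases before and 20 bases after a start in 84.3% of members, against 36.1% of all protein-coding genes. The median log2 ratio between the clone and the control was 0.045 over 34 measured members with the C-led run and -0.041 over 16 members whose listed starts lack it. These 16 include the paralogues RPS27L, RPL7L1, RPL10L and RPL26L1. The split therefore depends on paralogue status and start annotation as well as on the tract.

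Ribosomal protein mRNAs differed little between the clone and the control. Of 57 members above the floor on both arrays, 0 were 2-fold apart in either direction. Of all 12663 measured genes, which include genes above the floor on only 1 array, 3.1% were. A change of 1.5-fold was passed by 1 member, RPLP2, against 13.8% of all measured genes. The log2 ratios had a median of 0.032 and a middle range (25th to 75th percentile) of -0.066 to 0.11, and 53 members (93.0%) lay within 1.2-fold of equality, against 56.9% of all genes. Both shares move with brightness: of 174 other genes with a mean signal of at least 30000, 92.0% lay within 1.2-fold and 0 passed 1.5-fold. The 49 members over that limit had 98.0% within 1.2-fold and an SD of the log2 ratio of 0.10, against 0.14 in those 174 genes. The 2 sets were not matched in brightness: the median control signal was 67436.4 over the members and 40863.3 over the other genes.

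**Figure D1:**
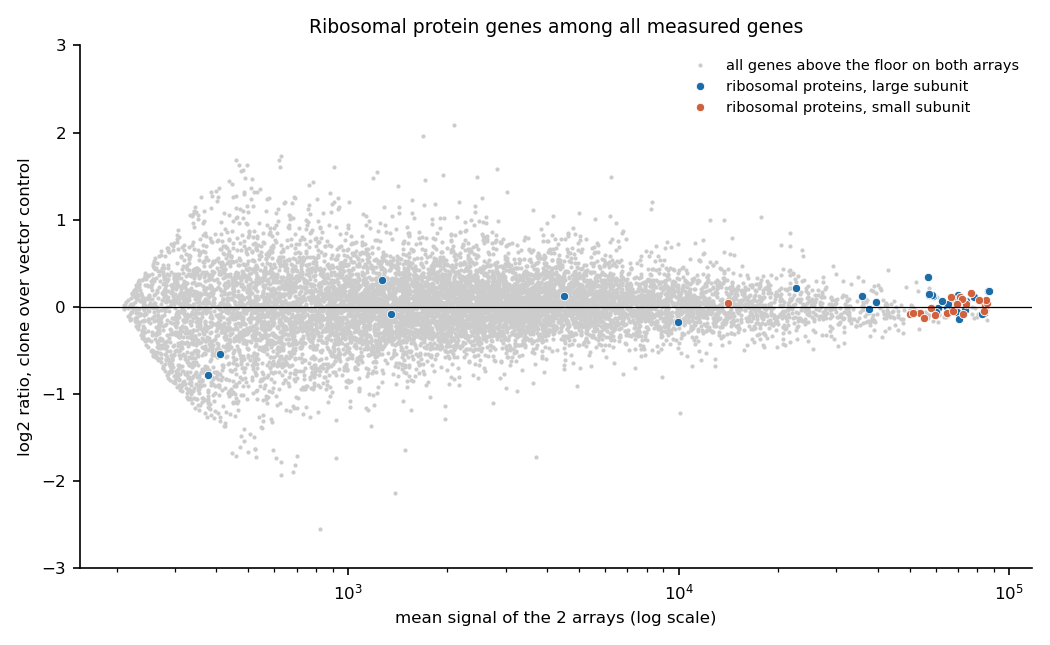
Log2 ratio of the clone over the vector control (vertical axis) against the mean signal of both arrays (horizontal, log scale) for every gene above the floor on both arrays (grey), with ribosomal proteins of the large (blue) and small (red) subunit. Most members lie at signals over 30000, where the ratios of all genes are narrow; the 2 lowest members, RPLP2 and RPL10L, lie at the dim end.

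Direction within this narrow band depended on the scale. As deposited, 31 members were higher and 26 lower in the clone (54.4% higher, against 47.1% of all measured genes). Of the 49 bright members 55.1% were higher, against 32.2% of the 174 other genes over the same limit, which had a lower median signal. Centred on the hybridisation spikes 55 of 57 members were higher and the median log2 ratio was 0.53, and centred on the poly-A spikes 57 of 57 were lower and it was -0.58. Those centrings move all genes alike, so directions given here are relative to arrays scaled to the same mean. The median of all measured genes was -0.022 on that scale. With a trend of the ratio on signal removed, the members' median was 0.064.

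In the large subunit, 20 of 36 measured genes were higher and 16 lower, with a median log2 ratio of 0.051 and a range of -0.79 to 0.35. RPL32, on chromosome 3, had the highest ratio: its only probe set had signals of 49817.5 and 63456.3, 1.27-fold higher in the clone. RPL27A followed at 1130.2 and 1398.5, a log2 ratio of 0.31, on a dim probe set that was its only one here. RPL31, which lies near the exit of the peptide tunnel, read 80830.1 and 91965.4, and RPL8, which contacts the peptidyl transferase region, read 81207.9 and 92156.5. These were log2 ratios of 0.19 and 0.18, and their clone signals were near the highest signal of the array, 96587.4. RPL38, which is known for a part in translating Hox mRNAs in the mouse, read 54281.8 and 60156.6 (0.15). RPL3, a core protein of the peptidyl transferase centre, read 54363.2 and 59860.5 (0.14), the same ratio as RPL35 within rounding.

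RPLP2, a protein of the stalk that recruits translation factors, had the lowest ratio. It went from 478.7 in the control to 277.7 in the clone, 1.72-fold lower, on a dim probe set; its other probe set was below the floor at 56.9 and 150.5. Probe sets this dim disagreed widely for other members, as described below. The clone array also read lower at the dim end. Genes this cell type should not express had a median signal of 67.4 in the control and 44 in the clone. Of all probe sets, 50.8% were above the floor in the control and 47.3% in the clone. The part of this in the ratios of RPLP2 and RPL10L was not tested. RPLP1, the stalk partner, read 73644.4 and 66805.6, lower by 0.14 on the log2 scale. RPL7 (84926.8 and 80184.7), RPL27 (66896.6 and 63669.6) and RPL39 of the peptide tunnel (85770.1 and 81788.3) were lower by 0.083, 0.071 and 0.069 on the log2 scale, differences under 0.097, the pooled SD between bright probe sets of a gene. The other probe sets for RPL7 were higher, at 0.0098 (65913 and 66360.5) and 0.54 (231.9 and 338). RPL11, which with RPL5 carries the small ribosomal RNA of the large subunit and can bind MDM2, read 64741.8 and 64638.6, the smallest difference of any measured member. RPL36A, at 147.2 and 154.6, was not measured.

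The 21 genes of the small subunit were all measured and spanned a narrower range, -0.12 to 0.16 on the log2 scale, with 11 higher and 10 lower and a median of 0.014. The low end of the large subunit came from dim probe sets. Among genes with a mean signal of at least 30000 the range was -0.14 to 0.35 in the large subunit and -0.12 to 0.16 in the small. RPS21 was the highest, at 72045.1 and 80766.1, but its other probe set (7017.3 and 6611.4) was lower in the clone. RPS27, a zinc-binding protein, read 63895.0 and 69127.7 (0.11), and RPS15 read 68247.2 and 73633.7 (0.11). RPS18, of the head of the subunit, read 69967.0 and 74259.1 (0.086). RPS6, the substrate of the S6 kinases, read 78504.8 and 82973.7 (0.080).

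Among the lower small subunit genes RPS7, mutated in some cases of Diamond-Blackfan anaemia, came first at 57435.1 and 52791.2 (-0.12). RPS29 read 61505.9 and 57765.0, RPS12 read 74164.0 and 70256.2, and RPS25, known for its part in initiation on viral internal entry sites, read 51527.2 and 48895.4. RPS28 read 55019.0 and 52352.4. The last 4 lay between -0.091 and -0.072 on the log2 scale. The other measured probe sets for RPS29 (410.6 and 463, 0.17) and RPS28 (1035.7 and 1142.4, 0.14) were dim and higher in the clone. RPS19, the gene most often mutated in Diamond-Blackfan anaemia, read 84234.1 and 87071.4 (0.048), and RPS14, which lies in the deleted interval of the 5q- syndrome, read 72947.1 and 74569.9 (0.032). Their other measured probe sets gave -0.0081 and -0.19 for RPS19, and -0.57 and 0.31 for RPS14.

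The medians of the subunits differed by 0.037 on the log2 scale, large above small, and by 0.058 over the 29 large and 20 small subunit genes with a mean signal of at least 30000. Over single probe sets of that brightness, 24 of 38 for the large subunit were higher in the clone (median 0.062) and 13 of 30 for the small subunit (median -0.016). These include the probe sets that gave the gene medians, and some genes count more than 1 time. They are therefore not a separate view of the subunits. The scale of the arrays cannot move the difference between the subunits, but the choice of probe sets did. On probe sets annotated with a RefSeq mRNA, an alternative chosen after the data were seen, it was -0.018, and on probe sets without shared sequence 0.18. With 1 array per group the difference could not be tested.

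**Figure D2:**
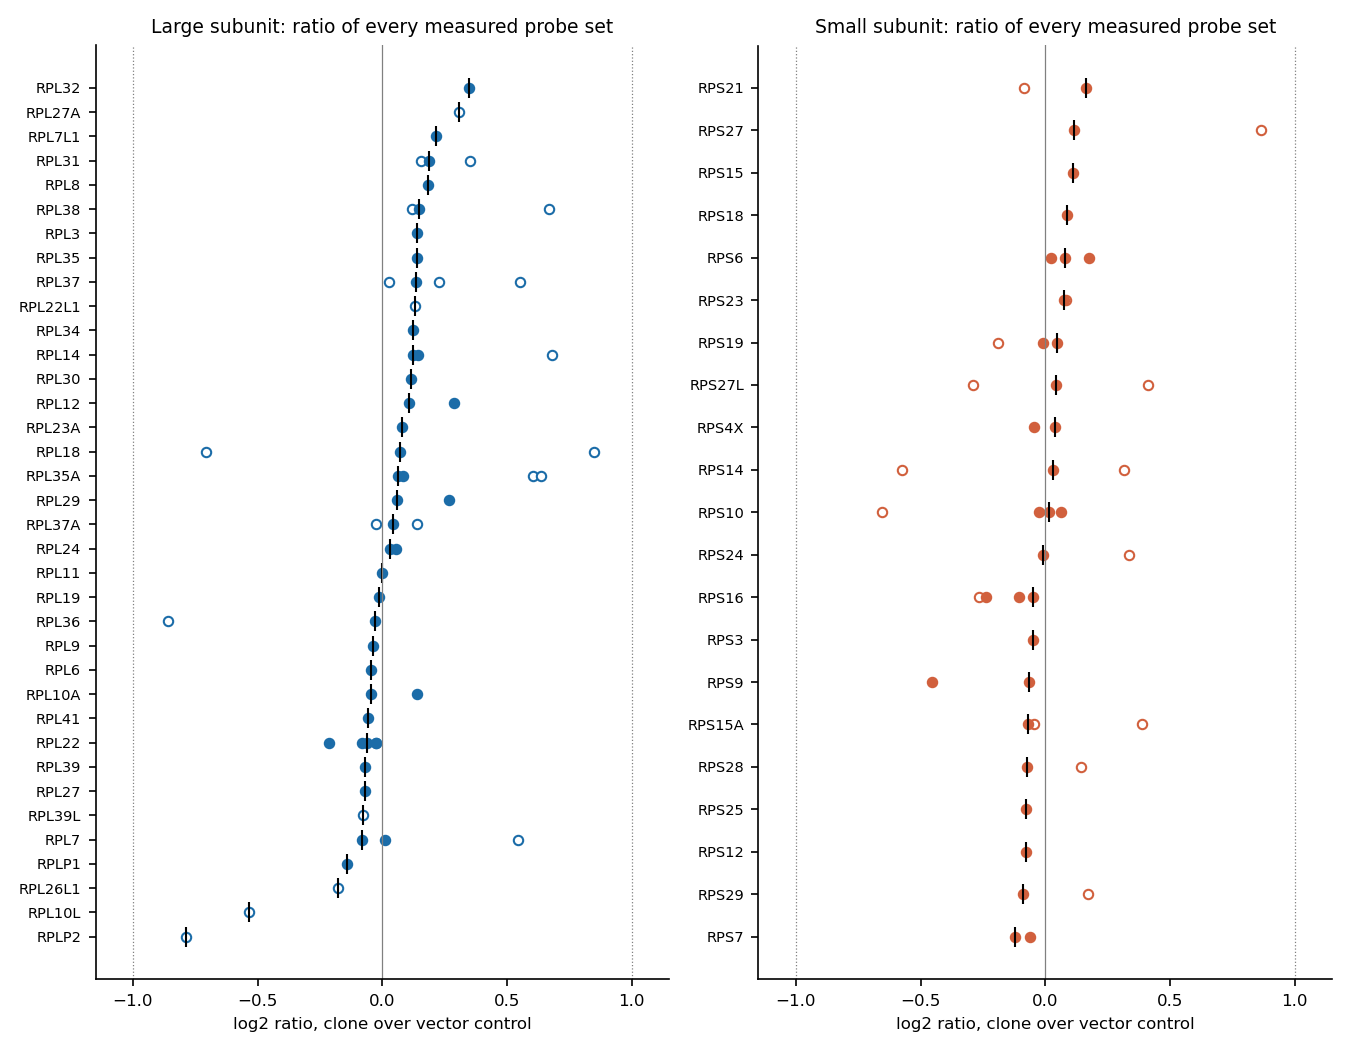
Log2 ratio of the clone over the vector control for every measured probe set, by gene, for the large (left) and small (right) subunit; filled circles have a mean signal of at least 10000, open circles a lower one, black ticks mark the brightest probe set and dotted lines 2-fold. Filled circles stay close to 0 in nearly every gene, whereas open circles of the same gene reach -0.86 (RPL36) and 0.87 (RPS27).

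Different probe sets of a gene were the only repeat measurement. Of the 120 probe sets 109 were above the floor on both arrays and 11 were below it on both, and 74 had a suffix that marks sequence shared with other transcripts, which in this family can include processed pseudogenes; whether such copies add to these signals was not tested. Of 30 genes with 2 or more measured probe sets, 11 were higher in the clone on each, 5 were lower on each and 14 were mixed. Those higher throughout were RPL12, RPL14, RPL24, RPL29, RPL31, RPL35A, RPL37, RPL38, RPS6, RPS23 and RPS27. Those lower throughout were RPL22, RPL36, RPS7, RPS9 and RPS16. In the large subunit 8 of 14 such genes were higher throughout and 2 lower, and in the small subunit 3 of 16 were higher and 3 lower. The same counts were not made over all genes, so they are not read as a trait of the members or of a subunit. The pooled SD of the log2 ratio between measured probe sets of a gene was 0.29 over these 30 genes. It was 0.35 over all 5387 genes with 2 or more measured probe sets.

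Dim and bright probe sets of a gene often disagreed. The pooled SD between probe sets was 0.097 over 15 genes where both had a mean signal of at least 30000 and 0.48 over 9 genes where both were under 10000. By these limits, which were set after the data were seen, 20 genes had both bright and dim probe sets. In 18 of them the median ratio of the dim ones lay farther from 0, in either direction, than that of the bright ones. This count was not made over other genes. The dim median lay above the bright median in 13 genes and below it in 7. RPS27 gave 0.11 on its bright probe set and 0.87 on a dim one that read 340.6 and 620.7. RPL35A gave 0.064 and 0.083 on its bright probe sets, and 0.61 and 0.64 on dim ones, of which the brighter read 1334.2 and 2029.9. RPL36 went the other way, with -0.028 on its bright probe set and -0.86 on one that read 666.7 and 367.2. RPL18 was the 1 member whose probe sets lay more than 2-fold apart from each other: the bright one read 72012.8 and 75684.9 (0.072), and the dim ones gave -0.71 (3920.8 and 2399.5) and 0.85 (293.9 and 528.7). Since these dim values have opposite signs, their median was 0.069 and RPL18 is not among the 18 genes. RPS9 had the widest gap among bright probe sets, at -0.066 on one (52232.0 and 49902.8) and -0.46 on another (48032.4 and 35016.3). Smaller gaps, still over 0.097, included those of RPL29 (0.061 and 0.27), RPL12 (0.11 and 0.29) and RPS16 (-0.048 and -0.24). What these dim probe sets read, whether other transcript ends, introns or antisense RNA, was not tested.

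Log2 ratios of the 6 measured paralogues, of 7 in all, ran from -0.54 to 0.22. RPL22L1, the partner of RPL22, had signals of 4296.1 and 4700.4 (0.13), while RPL22 was slightly lower on each of its 5 probe sets, from -0.21 to -0.025. RPS27L, a p53-inducible relative of RPS27, read 13866.6 and 14299.8 (0.044) on its brightest probe set, and its others gave 0.41 and -0.29. RPL7L1, a nucleolar relative of RPL7 that acts in ribosome assembly, read 20900.1 and 24285.1 (0.22), the highest ratio of the paralogues. RPL26L1, a near copy of RPL26, read 10581.0 and 9359.6 (-0.18). RPL39L, a form of RPL39 best known from the testis, read 1383.5 and 1309.8 (-0.079), beside RPL39 at -0.069. RPL10L, a retrocopy of RPL10 made in the testis, read 484.7 and 334.4 (-0.54), close to the floor. RPL3L, the muscle form of RPL3, was not measured, at 95.7 and 53.

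**Figure D3:**
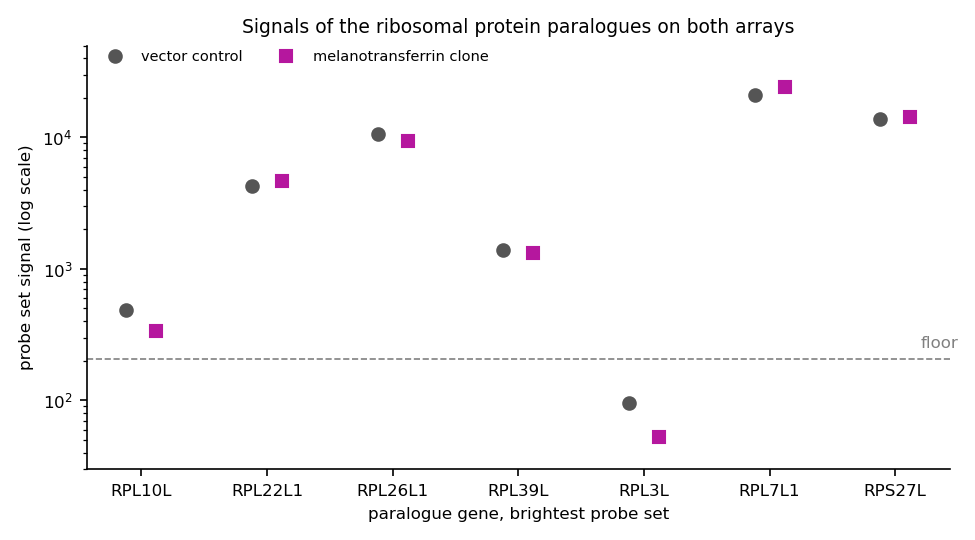
Signal of the brightest probe set (vertical, log scale) of the 7 paralogues in the vector control (grey circles) and the melanotransferrin clone (purple squares), with the floor as a dashed line. Pairs of points of the measured paralogues lie close together except for RPL10L, which is 1.45-fold lower in the clone. The pair of RPL3L, at 95.7 and 53, is the widest but lies below the floor on both arrays and was not measured. Heights of different genes are not comparable.

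Of the measured paralogues 3 were higher and 3 lower, with a median of -0.017, against 0.032 over 51 measured genes of the common ribosome. None passed 1.5-fold. All have 1 probe set except RPS27L with 3, and RPL10L, with the largest difference, is the dimmest.

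The members on chromosome 9 had smaller ratios than most other genes of that chromosome. Genes of chromosome 9 were higher in the clone as a group, with a median log2 ratio of 0.44 over 501 measured genes that are not members and 0.41 over the 37 of them with a mean signal of at least 10000, of which 33 were higher. RPS6, RPL12 and RPL35, the 3 members on that chromosome, were higher too, but at 0.080, 0.11 and 0.14. All 3 measured probe sets for RPS6 were higher, from 0.023 to 0.18, as were both for RPL12 (58366.7 and 71277.2 on the second, 0.29) and the 1 for RPL35 (55540.4 and 61120.3). Their median of 0.11 compares with 0.022 over 54 measured members on other chromosomes. Only 4 other genes of chromosome 9 had a mean signal of at least 30000, with a median of 0.32 and a lowest value of -0.019. The 3 members read 55540.4 to 82973.7, near the top of the scale, and the part of signal saturation in their smaller ratios was not tested.

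Other genes of ribosome synthesis and translation were listed for comparison, with roles in order from transcription of ribosomal RNA to translation. Of 15 measured genes for RNA polymerase I and its factors 1 was at least 2-fold higher and 0 lower, against 3.1% of all genes in either direction: TTF1, a termination factor on chromosome 9, read 2715.5 and 5608.8. The list had a median of -0.012. Among 32 measured genes of nucleolar processing 0 passed 2-fold and 11 were higher, with a median of -0.065; FBL, the methyltransferase fibrillarin, read 30186.5 and 36301.5, and RRP12, which acts in subunit export, was lower by 0.65 on the log2 scale. The 26 measured assembly factors of the large subunit had a median of -0.0051 and 0 past 2-fold, with REXO4, also on chromosome 9, highest at 0.81. The 13 chaperones and importins of ribosomal proteins had a median of -0.0026 and 0 past 2-fold.

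Genes listed as having a TOP tract, members aside, were also close to equal. Of 10 listed genes with a RefSeq start site, 8 had the C-led run. Over 13 measured mRNAs known for such a tract other than the members the median was -0.047, 4 were higher and 0 passed 2-fold. EEF1A1, the elongation factor, read 82861.4 and 76769.7 (-0.11), EEF2 read 50857.8 and 49657.7 (-0.034), and EIF4B had the lowest ratio at -0.37 (18826.1 and 14576.9). FAU and RPL36AL, which encode ribosomal proteins but fall outside the naming rule, stood at -0.064 and -0.26. Initiation factors had a median of -0.054 over 28 genes with 0 past 2-fold, from EIF5A at -0.48 to EIF3C at 0.75 on a dim probe set. Among 16 genes of TOR signalling and the S6 kinases RPS6KA5, a kinase of the nucleus, was 2.00-fold higher (499.1 and 998.7), TSC1 of chromosome 9 stood at 0.51 and RPTOR, a subunit of the TOR complex that S6 kinase needs, at -0.61; the median was -0.044. The 4 measured genes listed for RPL5, RPL11 and the p53 checkpoint were CDKN1A, HEATR3, MDM2 and MDM4. Their median was 0.073, with MDM2 at 2828.8 and 2859.8. With each gene given by the median of its probe sets it was -0.026.

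**Figure D4:**
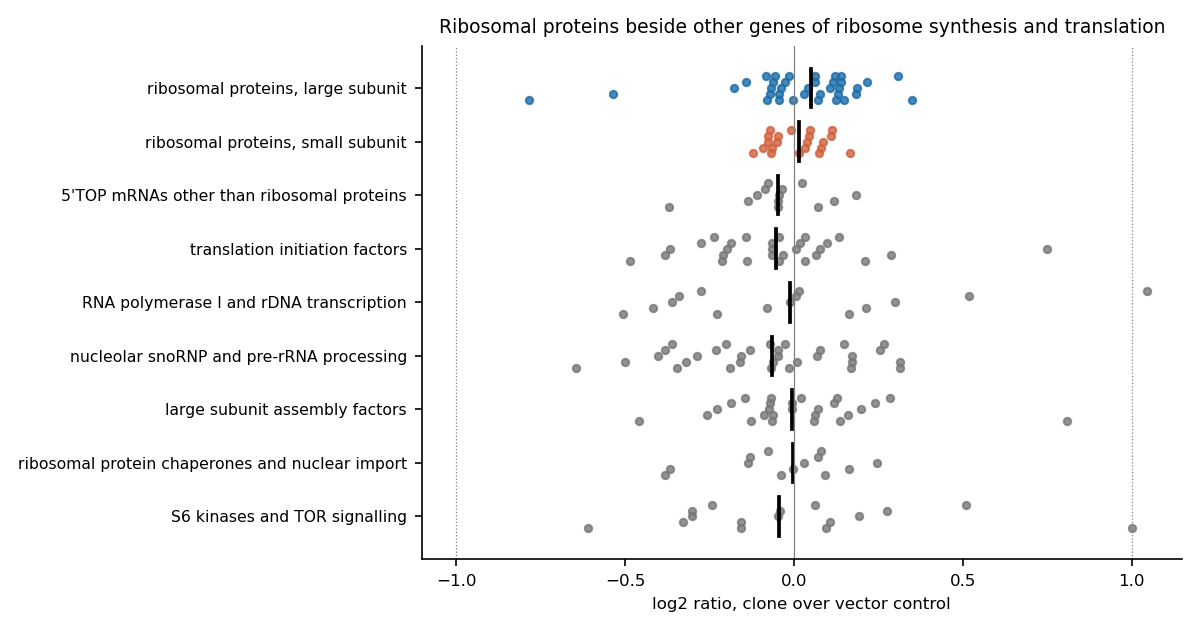
Log2 ratio of the clone over the vector control for each measured gene (points) of the ribosomal proteins and of 7 other lists, with each list's median as a black bar and 2-fold as dotted lines. Medians of all 9 rows lie between -0.065 and 0.051, and the points past or at 2-fold are TTF1 and RPS6KA5.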

How the data were processed

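The deposited values are linear intensity values, 1 per probe set and array, from GCOS 1.3 per the submitters' processing notes. How probe signals were summarised and scaled is not given in the sources used here, and no detection calls were used. Both arrays had a mean of 1000.12 after trimming 2% at each end. The platform annotation of 2016 gave the names, with 41097 probe sets naming 1 gene, 1801 several and 11777 unnamed here; symbols of 41043 were updated by gene ID through RefSeq GRCh38.p14. The floor was the 90th percentile of 191 probe sets for olfactory, taste receptor and hair keratin-associated genes, and genes below it on 1 array were set to it. Start sites came from the RefSeq promoter table, 250 bases before to 50 after each start. Named genes were those at least 1.5-fold apart, the extremes in each direction, paralogues and their partners, members on chromosome 9 and members below the floor; others are examples picked after their values were seen. Members and lists were chosen with earlier results of these data known. With 1 array per group there is no test; the number of arrays limits the precision. Scripts used Python 3.11.15, numpy 2.4.6, pandas 2.3.3 and statsmodels 0.14.6 and were tested on simulated data.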

Additional observations from a re-analysis of the deposited data

How the results depend on the processing

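The count of ribosomal protein genes at least 2-fold higher was 0 in each of 12 alternatives, and the count at least 2-fold lower was 0 except for 2 when centred on the poly-A spikes and 1 at 1.5-fold. The median log2 ratio of the members stayed positive in 10 of 11 alternatives; it was 0.53 centred on the hybridisation spikes and -0.58 centred on the poly-A spikes, and 0.075 on the 29 members with probe sets without shared sequence. The small subunit's median turned to -0.051 on those probe sets. The difference between the subunits ran from -0.018 to 0.18 and was negative only on RefSeq mRNA probe sets. The spike centrings shift every member by 0.50 or 0.61. Under the other alternatives 12 of 371 values for single members moved by more than the members' pooled probe set SD of 0.29, each through a change of probe set or of the floor. No paired analysis was possible because each group holds 1 array. Dim probe sets limit RPLP2, RPL10L and RPL27A, and signals near the top of the scale may compress ratios of the brightest members, which was not tested.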

Other observations

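The members lie on 19 chromosomes. Of the 7 on chromosome 3, 6 were higher in the clone with a median log2 ratio of 0.064. Of the 7 on chromosome 19, 3 were higher with a median of -0.028. Among all measured genes 47.1% were higher. Shares over all genes of chromosomes 3 and 19 were not computed, so no pattern by chromosome is read from these counts. Both chromosomes were picked after the values were seen. The letters TATA stood 40 to 16 bases before a start, on the transcribed strand, in 11 of 51 members (21.6%), against 9.47% of protein-coding genes.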
